A study of Drosophila melanogaster with 19 samples.

Results

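RNA was sequenced from germ cell cysts picked singly by needle from torn testes of Drosophila melanogaster, and arrested spermatocyte cysts from always early (aly) mutants were set against mitotically dividing spermatogonia. The labels give 2 libraries of aly cysts, 2 of 4-cell spermatogonia (S4) and 2 of 8-cell spermatogonia (S8), 6 of the 19 libraries in the study. The labels name neither the aly allele nor the control strain nor the age of the males, and they do not say whether libraries of a group came from separate males. All groups share the dissection in S2 insect medium, the needle picking and the poly-dT amplification. The members were 11814 of 12810 genes, those with at least 1 RPKM (reads scaled by gene length and a constant per library) in 2 of the 9 stage columns of the deposited table. Each gene was described by log2(RPKM + 1) in aly minus the same for the plain mean of S4 and S8, so a positive difference is higher in aly cysts. A cyst is a clone of germ cells that develop in step inside a somatic envelope.

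Spermatogonia divide by mitosis, replicate once more after the last division and then turn on a large spermatocyte programme during an extended meiotic G2. The product of aly is a subunit of tMAC, the testis form of a conserved cell cycle and transcription complex, and aly mutants arrest as spermatocytes before the meiotic divisions and before spermatid differentiation. tMAC and the testis TAFs, which are testis forms of general transcription factor subunits, are known as the meiotic arrest genes, and much spermatid gene transcription in this tissue depends on them. The comparison asks which spermatocyte genes are on in cysts labelled aly, and which spermatogonial genes are off there.

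Reads of single libraries were recovered from the deposited stage means, and the libraries of a stage are lettered here by depth. The aly libraries held 3837373 to 5200364 recovered reads and 11804 to 12378 genes with a read. The 4 spermatogonial libraries held 1150282 to 2873887 reads and 7391 to 7786 genes with a read. The library sizes behind the deposited RPKM were not these totals. They were 3412310 and 4905736 in aly, under the recovered reads of each library. In spermatogonia they were 1328978 to 3703867, above the recovered reads of each library. The deposited values thus stand higher in aly, relative to spermatogonia, than values scaled to recovered reads. For a 1 kb gene, 3 reads correspond to 0.612 and 0.879 RPKM in the aly libraries and to 0.81 to 2.26 RPKM in the spermatogonial ones, a detection floor that covers counting error only. No gene lay above 1 read per base in any library, which puts a ceiling of 248 RPKM on the level in aly, 552 in S4 and 352 in S8. Genes that overlap or lie antisense to each other are uncertain, since strand handling is not stated. In such RNA a lower level per cell and fewer cells of a kind cannot be told apart.

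The gene aly itself (FBgn0004372, 3L, 3024129 to 3026521, minus strand) had 33.4 and 30.4 RPKM in the aly cysts and no read in the 4 spermatogonial libraries. Its RNA was therefore present in the libraries labelled aly, and because the allele is not given its level does not check the label. The libraries of group GB, outside the comparison, held 22.3 and 42.2 RPKM of aly. The 3 marker genes of the comparison, chosen with these data known, differed in both directions. can (FBgn0011569, 3L, 10263909 to 10267111, minus strand), a testis TAF, had 120 and 133 RPKM in aly and no read in any spermatogonial library, at least 275-fold higher (limma adjusted p = 6.26e-08). Such a bound is given for genes with no spermatogonial read, meaning none in S4 and S8, whose fitted fold is no bound. Other stages may hold reads of such genes. The bound allows for counting error only, not for a gene missing from a whole library. topi, for instance, had 103 reads in S4 library a and 0 in library b. schuy (FBgn0036925, 3L, 19986093 to 19988072, plus strand), one of the cup and comet genes whose RNA gathers at the tail ends of spermatids, had 110 and 122 RPKM in aly and no read in the 4 others, at least 165-fold higher (adjusted p = 3.51e-08). RnrS (FBgn0011704, 2R, 11983145 to 11985393, minus strand), the small subunit of the ribonucleotide reductase that supplies DNA precursors, had 58.3 and 50.5 RPKM in aly, against 273 and 180 in S4 and 226 and 283 in S8. It fell by 2.11 ± 0.68 (fitted log2 difference ± SE, adjusted p = 0.0169). The RnrS call did not hold without S4 library a (a stage difference of -1.98, adjusted p = 0.0401), without aly library a (-2.23, adjusted p = 0.0762) or without aly library b (-2.03, adjusted p = 0.0968). It was also lost with values held at the lowest library ceiling (-1.84) and with 16-cell spermatogonia added to S4 and S8 (-1.62, adjusted p = 0.202). Coordinates are those of the BDGP6.54 annotation, and the authors' build is not known here.

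The balance of genes higher and lower in aly cysts depended on the scaling. By stage values as deposited 3141 of 11814 genes (26.6%) stood at least 4-fold higher in aly and 1097 (9.29%) at least 4-fold lower, while with quantile scaling 1762 stood higher and 2224 lower. Each SE and p came from a fit of all 20 libraries in 9 groups, so its spread is not that of aly, S4 and S8 alone. A gene was called where limma gave an adjusted p under 0.05 over the 11786 genes fitted, the stage values differed at least 4-fold the same way and the higher side reached 8 RPKM. By that rule 2467 genes (20.9%) rose in aly and 719 (6.1%) fell, so 77.4% of calls were higher. A call of lower needed 8 RPKM in spermatogonia. Of all kept genes 3015 had no spermatogonial read, and the spermatogonial median was 9.14 RPKM. The 6.1% is therefore a share over many genes that could not be called lower. With reads scaled to library totals 2105 rose and 1044 fell, and with quantile scaling 1612 rose and 1600 fell, so 66.8% and 50.2% of calls were higher. The median difference of all kept genes was 0.62, against 0.35 and -0.27 under these scalings, and each list below is read against that shift and against the shares of 20.9% and 6.1%. Both aly libraries lay outside the range of the 4 spermatogonial libraries for 2462 of the genes that rose (99.8%) and 646 of those that fell (89.8%), against 7900 of all genes fitted (67%).

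Many genes that were on in aly had no read in S4 or S8. Of all genes, 962 were unread in S4 and S8 and reached at least 8 RPKM in both aly libraries. In the opposite direction 6 had no read in either aly library and at least 8 RPKM in all 4 spermatogonial ones, and 25 with that spermatogonial level stood under 1 RPKM in both aly libraries. The genes that rose had a median of 46.4 RPKM in aly, against 0 in S4 and in S8. The genes that fell had a median of 7.91 RPKM in aly, against 88 in S4 and 77.4 in S8. Just inside the 4-fold limit lay raw, at 17.5 RPKM in aly against 3.61 in spermatogonia, and dUTPase, at 93.3 against 377. Just outside lay SCAR, at 86.7 RPKM in aly against 20.9 in spermatogonia.

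**Figure D1:**
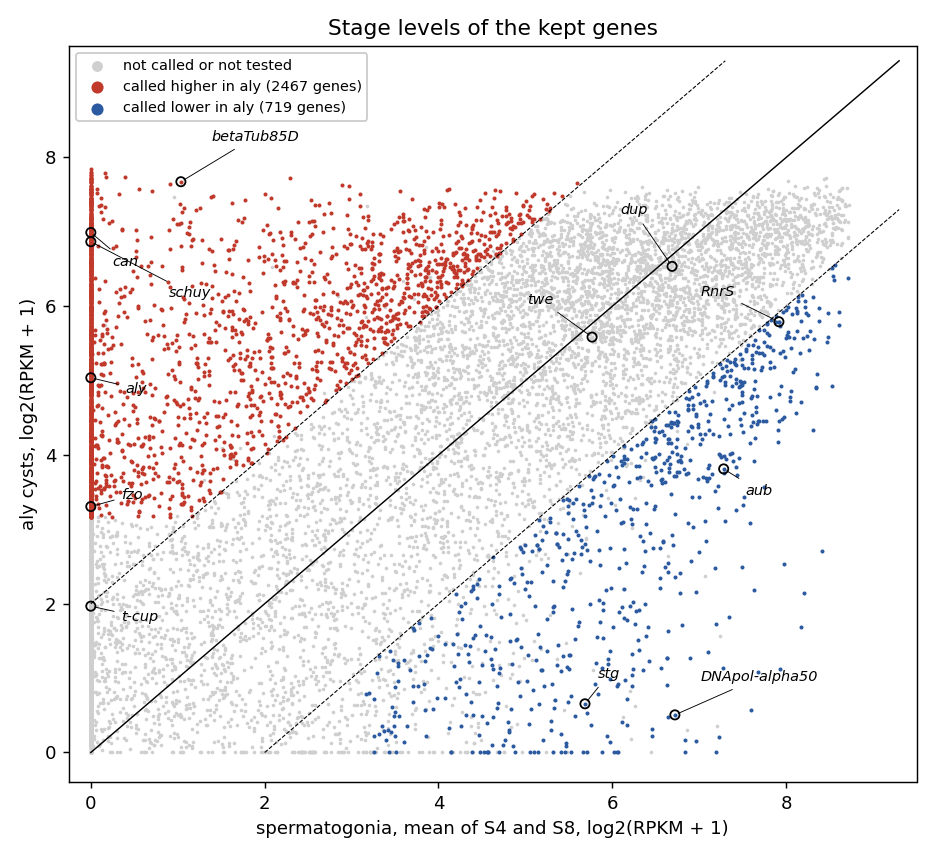
Stage level of each kept gene in aly cysts (vertical axis) against the mean of S4 and S8 (horizontal axis), both as log2(RPKM + 1), with the diagonal as a solid line and 4-fold differences as dashed lines. The 2467 genes called higher in aly pile up at 0 in spermatogonia, where can and schuy sit, while stg and DNApol-alpha50 lie near 0 in aly among the 719 called lower.

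The spermatocyte transcription machinery was on in aly cysts. Of 9 genes of tMAC and its partners 6 rose and 0 fell, with a median log2 difference of 4.41, and 4.36 with genes unread in spermatogonia placed at their floor of 3 reads per library. wuc, a tMAC subunit, had 89.2 and 95.1 RPKM in aly and no read in S4 or S8, at least 48.6-fold higher (adjusted p = 2.89e-08). comr, another subunit, had 45 and 45.6 RPKM in aly and no spermatogonial read, at least 66.6-fold higher. topi, a zinc finger subunit, had 164 and 199 RPKM in aly, against 13.6 and 0 in S4 and 7.23 and 9.33 in S8, and rose by 4.93 ± 0.97 (adjusted p = 0.000578). The paired homeodomain genes achi and vis also rose, to 54.9 and 68.3 RPKM and 47.2 and 58.6 RPKM, against at most 4.81 in a spermatogonial library. The 3 members that were not called were tomb, at 49.0 and 49.8 RPKM in aly against 3.35 to 43.2 in spermatogonia, and mip40 and Caf1, which are shared with the general complex. mip40 had 102 and 113 RPKM in aly, against 111 to 178 in spermatogonia, and the aly range met the spermatogonial one there. Caf1 had 86.1 and 92.4 RPKM in aly, against 174 to 203 in spermatogonia, without overlap. It passed the limma threshold as lower (-1.06 ± 0.38, adjusted p = 0.0284) but not the fold.

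The testis TAFs followed tMAC, and 4 of 4 rose with a median of 4.63. sa, a testis form of TAF8, had 129 and 151 RPKM in aly, against 0 and 9.85 in S4 and 3.81 and 6.12 in S8. nht, a testis form of TAF4, had 114 and 139 RPKM in aly, against 0 and 10.3 in S4 and 0 and 5.50 in S8, and rose by 5.44 ± 0.85 (adjusted p = 8.15e-05). mia, a testis form of TAF6, had 66.7 and 52.6 RPKM in aly, against 7.81 and 9.49 in S4 and 19.9 and 14.8 in S8. The mia call was lost under both scalings, without S8 library b (1.99, adjusted p = 0.0455), without aly library a (1.94, adjusted p = 0.126) and without aly library b (2.27, adjusted p = 0.0682).

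Chromatin proteins of spermatocytes rose as well, 5 of 6 with a median of 5.27, and 4.94 with unread genes at their floor. The testis bromodomain genes tbrd-1 (CG13597 in the table) and tbrd-2 (CG7229) had 178 and 232 RPKM and 156 and 192 RPKM in aly. In spermatogonia their highest library held 0 and 0.331 RPKM. tbrd-3 (CG30417) had 118 and 132 RPKM in aly, against 0 in both S4 libraries and 0 and 36.1 in S8, so a lone S8 library carried all of its spermatogonial signal. kmg (CG5204), a zinc finger protein that keeps somatic genes silent in spermatocytes, had 111 and 123 RPKM in aly and no read in S4 or S8, at least 204-fold higher. It was read outside the comparison, at 45.5 RPKM in the 16-cell spermatogonia and at 0 and 33.4 in the GB libraries. Its partner Mi-2, a chromatin remodeller, had 124 and 161 RPKM in aly against 39.9 to 50.5 in spermatogonia, with an adjusted p of 0.0022 but less than a 4-fold difference (1.60). simj, which belongs to the same remodelling complex, had 78.2 and 91.8 RPKM in aly against 2.86 to 19.9 in spermatogonia and rose by 3.02 ± 0.50.

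Among genes of meiotic translation and the meiotic cell cycle, the RNA-binding regulators rose, while the cell cycle genes and eIF4E-3 were not called. Of 10 tested, 5 rose and 0 fell, with a median of 1.86. fest (CG9975), a cofactor of translational control in spermatocytes, had 186 and 254 RPKM in aly, against 0.493 at most in spermatogonia, and rose by 7.63 ± 0.41 (adjusted p = 1.75e-08). Its partner Rbp4 had 151 and 190 RPKM in aly, against 0 and 18.4 in S4 and 0 and 0.86 in S8. bol, the Boule protein needed for entry into the meiotic divisions, had 71.7 and 87.4 RPKM in aly, against 7.54 and 2.90 in S4 and 1.49 and 4.19 in S8, and rose by 4.14 ± 0.64 (adjusted p = 6.9e-05). Syp (CG17838) and heph, both RNA-binding proteins, rose to 95.3 and 121 RPKM and to 57.7 and 70.9 RPKM in aly, against at most 1.98 and 12.7 in spermatogonia, though the heph call was lost under quantile scaling (1.66). twe, the Cdc25 phosphatase of meiosis, had 48.2 and 45.8 RPKM in aly, against 29.1 and 27.6 in S4 and 91.4 and 65.8 in S8. The aly libraries lay between the S4 and the S8 libraries there, and late spermatocytes held 184 RPKM. CycB3 had 50.7 and 52.7 RPKM in aly, against 54.3 and 25.7 in S4 and 64.1 and 41.7 in S8, again with overlap.

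Most genes known for their use in spermatids were already high in aly cysts. Of 29 tested, 27 rose and 0 fell, with a median difference of 7.02, and 5.50 with the 20 genes unread in spermatogonia placed at their floor. The summed level of the list was 3450 and 4280 RPKM in the aly libraries, against 51.5 and 52.8 in S4 and 36.7 and 48.9 in S8. Mst87F, a sperm tail protein, had 137 and 177 RPKM in aly and no read in S4 or S8, at least 54.5-fold higher (adjusted p = 0.000121). Outside the comparison the GB libraries held 129 and 0 RPKM of it, and the 16-cell spermatogonia 2.29. betaTub85D, the tubulin of meiotic spindles and sperm tails, had 179 and 228 RPKM in aly, against 1.33 and 1.23 in S4 and 1.17 and 0.472 in S8, and rose by 6.65 ± 0.58. loopin-1, a sperm leucyl aminopeptidase, had 186 and 259 RPKM in aly and no spermatogonial read, at least 351-fold higher.

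Within that list the levels in aly ran from close to the ceiling down to near the limit for calling. Of the 29 genes, 6 stood above 80% of the aly ceiling of 248 RPKM, and the list's median was 63.3% of it, which limits how far apart the highest members can lie. The same list had a median of 157 RPKM in aly, 76.4 in early spermatocytes (EC) and 343 in the mean of the late spermatocyte groups, where the median was 73.6% of the ceiling. At the low end were fzo, the mitofusin of spermatid mitochondria, at 10.3 and 7.48 RPKM in aly, and tomboy20, a mitochondrial import protein, at 22.6 and 12.9. Neither had a spermatogonial read, and late spermatocytes held 124 and 384 RPKM of them. The fzo call was lost without aly library a (3.08, with the aly level then under 8 RPKM). The protamine genes Mst35Ba and Mst35Bb, which package the sperm genome, rose to 47.1 and 49.4 RPKM and to 24.5 and 18.7 RPKM in aly. The histone-like Mst77F had 120 and 121 RPKM in aly, against 2.48 at most in spermatogonia. dj, a sperm protein, had 64.7 and 44.6 RPKM in aly, against 0 in 3 spermatogonial libraries and 2.15 in the other, and stood at 286 in late spermatocytes. Mst35Ba and Mst35Bb, the S-Lap genes and the Mst84D genes are close copies or close neighbours, and reads may be split or shared among them.

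Most cup and comet genes, known for transcription in spermatids after meiosis, rose in aly. Of 18 tested, 11 rose and 0 fell, with a median of 5.30, and 4.55 with the 16 unread genes at their floor. hale had 129 and 142 RPKM in aly and no spermatogonial read, at least 139-fold higher, and soti had 117 and 135, at least 123-fold higher. EC held 5.48 RPKM of schuy, 14.6 of hale and 38.9 of soti, and late spermatocytes held 184, 208 and 305. wa-cup, at 46.7 and 53.7 RPKM in aly, and r-cup, at 80.3 and 80.1, were likewise unread in spermatogonia. The other 7 were sunz, cola, d-cup, f-cup, p-cup, s-cup and t-cup, and each passed the limma threshold but not the fold or the RPKM minimum. f-cup missed only the fold, at 47.8 and 53.0 RPKM in aly, against 16.1 and 3.20 in S4 and 15.6 and 18.1 in S8. t-cup had 2.56 and 3.27 RPKM in aly and no spermatogonial read, with 273 in late spermatocytes. sunz had 2.48 and 1.30 RPKM in aly, with 165 in late spermatocytes, and d-cup had 4.25 and 2.78, with 108. The levels of t-cup, sunz and d-cup in aly were far under those of schuy and hale.

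**Figure D2:**
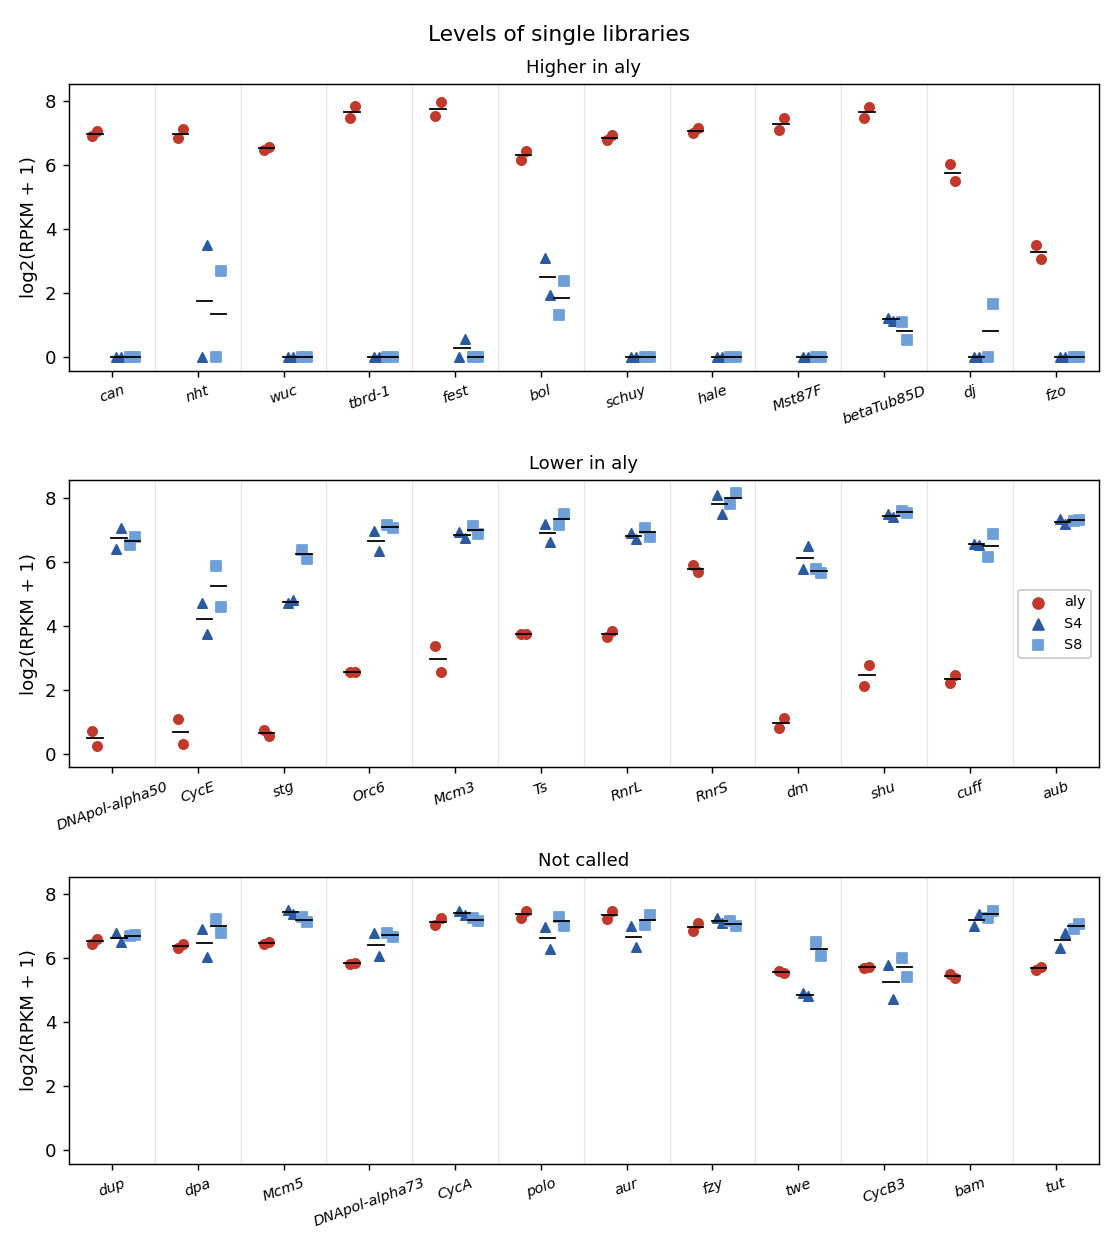
Level of single genes in each library as log2(RPKM + 1), with aly libraries as circles, S4 as triangles, S8 as squares and a short bar at each stage's mean of the plotted values. The top row holds genes called higher in aly, the middle row genes called lower and the bottom row genes that were not called, where the aly points lie among the spermatogonial ones for CycA, polo, aur, fzy, dup and dpa and below them for bam, tut and Mcm5.

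Of 7 tested Y-linked fertility genes 2 rose (28.6%, against 20.9% of all genes) and 0 fell, with a median of 0.63 that turned to -0.30 under quantile scaling, and 0.12 with unread genes at their floor. kl-5, an axonemal dynein heavy chain, had 13.1 and 15.3 RPKM in aly and no spermatogonial read, at least 74.7-fold higher, against 14.3 in late spermatocytes. ARY had 14.5 and 19.7 RPKM in aly and no spermatogonial read, against 118 in late spermatocytes. kl-2, also a dynein heavy chain, had 0.115 and 0.0942 RPKM in aly, against 0 in S4 and 0.13 and 0.0698 in S8, with 9.44 in late spermatocytes. Pp1-Y2 had 0.496 and 0.238 RPKM in aly and no spermatogonial read, with 47.5 in late spermatocytes. Summed over the list, the aly libraries held 29.8 and 38.1 RPKM, most of it from kl-5 and ARY, against 0.13 at most in a spermatogonial library.

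Many testis paralogues of housekeeping proteins rose, while their general partners stood lower in RPKM, under ceilings that differ between the groups. Of 14 testis paralogues of respiratory chain and ATP synthase subunits 9 rose and 0 fell, with a median of 4.05, and 2.73 with unread genes at their floor. COX4L (CG10396) had 153 and 189 RPKM in aly, against 0 in both S4 libraries and 9.67 and 0 in S8, and ATPsynbetaL (CG5389) had 121 and 139, against 1.11 at most. Cyt-c-d, the testis cytochrome c, had 85.8 and 98.0 RPKM in aly, against 0 and 2.59 in S4 and 32.3 and 12 in S8, and rose by 3.88 ± 0.68. Of the 12 general partners 0 rose and 3 fell, with a median of -1.80, and the other 9 passed the limma threshold as lower without reaching 4-fold. ATPsyn-beta had 50.2 and 39.9 RPKM in aly, against 301 and 513 in S4 and 240 and 357 in S8, and fell by 2.89 ± 0.45 (adjusted p = 7.04e-05). Cyt-c-p had 39.2 and 38.5 RPKM in aly, against 241 and 345 in S4 and 180 and 246 in S8, so the somatic cytochrome c was lower and the testis form higher in the same cysts. The spermatogonial median of these partners was 261 RPKM, above the aly ceiling of 248. Taken against each group's ceiling, their median was 31.0% in aly and 57.8% in spermatogonia. COX7A, not called, had 137 and 177 RPKM in aly, where the library ceilings are 204 and 293. In S4 it had 241 and 443 RPKM, where they are 350 and 752. The part of the unequal ceilings in these differences was not tested. With every value held at the lowest ceiling, 204 RPKM, their median was -1.27 and 3 still fell, while 7 fell under total-read scaling and 6 under quantile scaling. Without S4 library a 6 fell and without S8 library a 5 did, and leaving out another single library gave 3 or 4.

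Of 14 testis paralogues of proteasome subunits 7 rose and 0 fell, with a median of 3.34, and 2.15 with unread genes at their floor. Prosbeta2R1 had 152 and 167 RPKM in aly and no spermatogonial read, at least 121-fold higher, and Rpn12R had 153 and 196, at least 122-fold higher. Prosbeta5R1 (Prosbeta5R in the table) had 8.29 and 4.24 RPKM in aly and no spermatogonial read, with 302 in late spermatocytes, and was not called. Of 10 general partners 0 rose and 3 fell, with a median of -1.45. With values held at the lowest ceiling 2 fell and the median was -0.79. Taken against each group's ceiling, the list's median was 47.4% in aly and 66.0% in spermatogonia. Rpn12 had 22.9 and 27.6 RPKM in aly, against 244 and 391 in S4 and 207 and 302 in S8, and fell by 3.41 ± 0.40. Prosalpha3 (Pros29 in the table) had 157 and 199 RPKM in aly, against 288 and 513 in S4 and 229 and 346 in S8, and was not called. Under total-read scaling 5 of the 10 fell.

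Most genes that come on in early spermatocytes were on in aly, by gene sets chosen on stages outside the comparison. Genes at least 4-fold higher in EC than in 16-cell spermatogonia (S16) with at least 8 RPKM numbered 2029, and 1334 of the 2013 tested rose in aly (66.3%, against 20.9% of all genes). S16 is 1 library of 845776 reads, in which 3 reads of a 1 kb gene correspond to 3.22 RPKM, and every set chosen against S16 rests on it. The median of the EC set was 50.01 RPKM in aly, against 1.87 in S4 and S8, and 33.7 in EC. Over all kept genes the spermatogonial median was 9.14 RPKM, so the set is also one of genes low before EC. Of the 2029, 19 (0.936%) stood under 1 RPKM in aly. The share was 51.1% against 14.1% of all genes under quantile scaling.

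Genes that rise later stood far under their late spermatocyte level in aly. Genes at least 4-fold higher in late spermatocytes than in EC numbered 2401, and 969 of 2393 rose in aly (40.5%). Their median was 6.72 RPKM in aly and 0 in spermatogonia, with 129 in late spermatocytes, and 446 of them (18.6%) stood under 1 RPKM in aly. Leaving out the genes already up in EC left 1697, of which 407 of the 1693 tested rose in aly (24%), a share near the 20.9% of all genes, and under quantile scaling it was 13.5% against 14.1%. Those genes had a median of 3.41 RPKM in aly and 79.4 in late spermatocytes. The difference between the shares of these sets was not tested.

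Genes that shut off at the spermatocyte transition were lower in aly in part. Genes at least 4-fold lower in EC than in S16 numbered 389, and 123 fell in aly (31.6%, against 6.1% of all genes), while 11 rose. Their median difference was -1.72, with quartiles of -2.80 and -0.62, and their median level was 8.27 RPKM in aly, against 33.4 in S4 and S8, and 7.82 in EC. Over all kept genes the spermatogonial median was 9.14 RPKM, near the 8 RPKM that a call of lower needs. Under quantile scaling 210 fell (54% against 14% of all genes). Of the 888 genes at least 4-fold lower in late spermatocytes than in EC, 175 fell in aly (19.7%) and 86 rose.

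**Figure D3:**
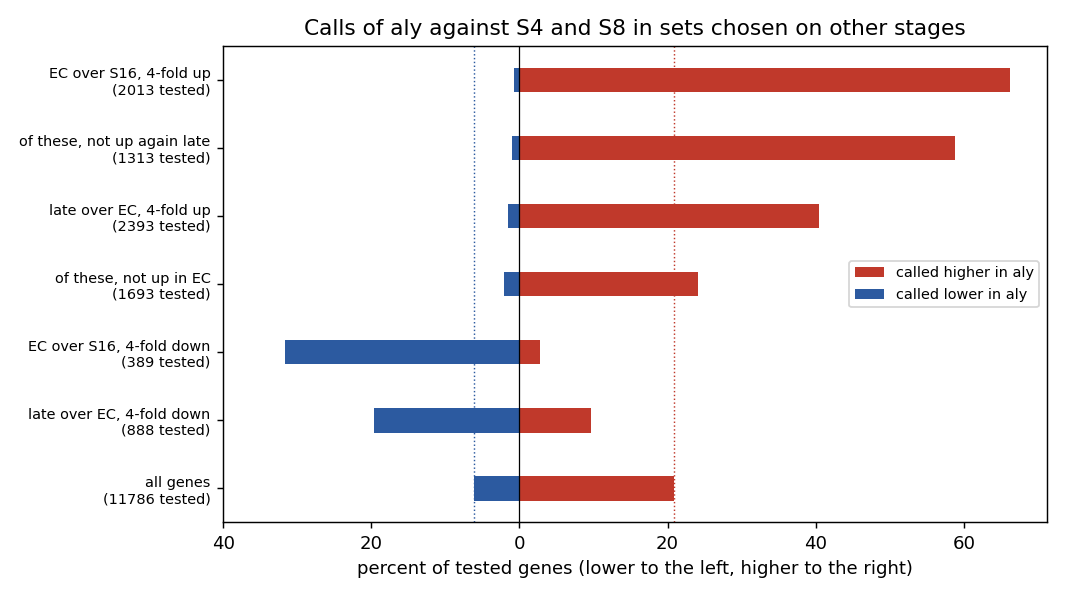
Percent of tested genes called higher (right) and lower (left) in aly against S4 and S8, for sets chosen on EC, S16 and late spermatocytes and for all genes, whose shares are repeated as dotted lines. Genes up in EC reach 66.3% called higher, genes up late and not in EC 24%, close to the 20.9% of all genes, and genes down in EC 31.6% called lower.

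DNA replication genes were shut off in part in aly cysts. Of 30 tested, 0 rose and 13 fell (43.3%, against 6.1% of all genes), with a median of -1.64. The list's spermatogonial median was 114 RPKM, against 9.14 over all kept genes, so these 2 shares have unlike bases. The count was 16 under total-read scaling, 18 under quantile scaling, 10 with values held at the lowest ceiling, and 10 to 12 with 1 library left out. DNApol-alpha50 (FBgn0011762, 3L, 8340314 to 8344404, plus strand), a primase subunit that starts new strands, had 0.652 and 0.188 RPKM in aly, against 83.2 and 134 in S4 and 92.1 and 109 in S8. It fell by 6.21 ± 0.62 (adjusted p = 9.65e-07), with both aly libraries under 1 RPKM. CycE, the cyclin that drives entry into S phase, had 1.13 and 0.241 RPKM in aly, against 25.1 and 12.4 in S4 and 58.0 and 23.0 in S8, and fell by 4.03 ± 0.92. Outside the comparison S16 held 0.663 RPKM of CycE, EC 4.74 and late spermatocytes 44.5, so its RNA was not low in all later stages. Orc6, a subunit of the origin recognition complex, had 4.96 RPKM in each aly library, against 123 and 79.6 in S4 and 141 and 132 in S8, and fell by 4.30 ± 1.10 (adjusted p = 0.00411).

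RnrL, the large subunit of ribonucleotide reductase, had 11.6 and 13.5 RPKM in aly, against 119 and 105 in S4 and 132 and 110 in S8, and fell by 3.12 ± 0.63. Ts, thymidylate synthase, had 12.4 RPKM in each aly library, against 144 and 97.5 in S4 and 143 and 180 in S8, and fell by 3.37 ± 0.59. RnrS kept a higher aly level than either, and EC held 5.14 RPKM of RnrS, 35.8 of RnrL and 1.40 of Ts.

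The subunits of the MCM helicase, which unwinds DNA at forks, did not move alike. Mcm3 had 9.40 and 4.89 RPKM in aly, against 123 and 107 in S4 and 139 and 116 in S8, and fell by 3.96 ± 0.70. Mcm7 had 15.4 and 12.8 RPKM in aly, against 143 to 199 in spermatogonia, and Mcm2 had 22.1 and 14.8, against 118 to 145, and both fell. Mcm5 had 85.7 and 89.7 RPKM in aly, against 183 and 165 in S4 and 156 and 139 in S8, and was not called (-0.86 ± 0.59, adjusted p = 0.241). dpa, the Mcm4 subunit, had 78.8 and 85.8 RPKM in aly, against 119 and 64.4 in S4 and 150 and 111 in S8, and the groups overlapped. dup, the Cdt1 licensing factor that loads the helicase, had 87.4 and 96.2 RPKM in aly, against 110 and 90.5 in S4 and 103 and 105 in S8 (-0.15 ± 1.14, adjusted p = 0.93). These SEs draw on all 9 groups, and the GB libraries held 182 and 25.8 RPKM of Mcm5 and 58.2 and 0 of dup. Early spermatocytes held 14.8 RPKM of Mcm5, 33.7 of dpa and 32.5 of dup, and S16 held 29.9, 16.4 and 6.91. DNApol-alpha73, the partner of the primase subunits, had 56.2 and 57.4 RPKM in aly, against 66.9 to 110 in spermatogonia, and was not called either. mus209, the sliding clamp PCNA, had 125 and 164 RPKM in aly, against 306 and 596 in S4 and 242 and 386 in S8, a difference of -1.40 with an adjusted p of 0.000777. Its S4 levels stood above the aly ceiling of 248. Differences between subunits were not tested.

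Of 23 tested genes of the mitotic apparatus 0 rose and 1 fell, stg, a share near the 6.1% of all genes called lower. The median was -0.05, below the 0.62 of all genes, but under quantile scaling it was 0.10, above the -0.27 of all genes. As deposited, 3 others passed the limma threshold alone as higher and 4 as lower. stg (FBgn0003525, 3R, 29251826 to 29255800, minus strand), the Cdc25 phosphatase that triggers mitosis, had 0.668 and 0.480 RPKM in aly, against 25 and 27.1 in S4 and 82.3 and 67.4 in S8. It fell by 4.85 ± 0.74 (adjusted p = 6.61e-05), while its meiotic relative twe was not called. CycA had 131 and 152 RPKM in aly, against 180 and 161 in S4 and 153 and 142 in S8. polo, a mitotic kinase, had 153 and 179 RPKM in aly, against 125 and 78.1 in S4 and 157 and 129 in S8, and aur, another, had 148 and 178, against 127 and 80.4 in S4 and 131 and 162 in S8. fzy, an activator of the anaphase-promoting complex, had 115 and 137 RPKM in aly, against 152 and 137 in S4 and 142 and 128 in S8. These 4 genes thus overlapped between the groups. CycB had 25.8 and 13.7 RPKM in aly, against 95.9 and 24.7 in S4 and 105 and 48.9 in S8, with 170 in late spermatocytes, and was not called (adjusted p = 0.137). thr, the separase, leaned the other way at 66.2 and 89.3 RPKM in aly, against 14.6 to 29.1 in spermatogonia, with a stage difference of 1.93 and an adjusted p of 0.0357.

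**Figure D4:**
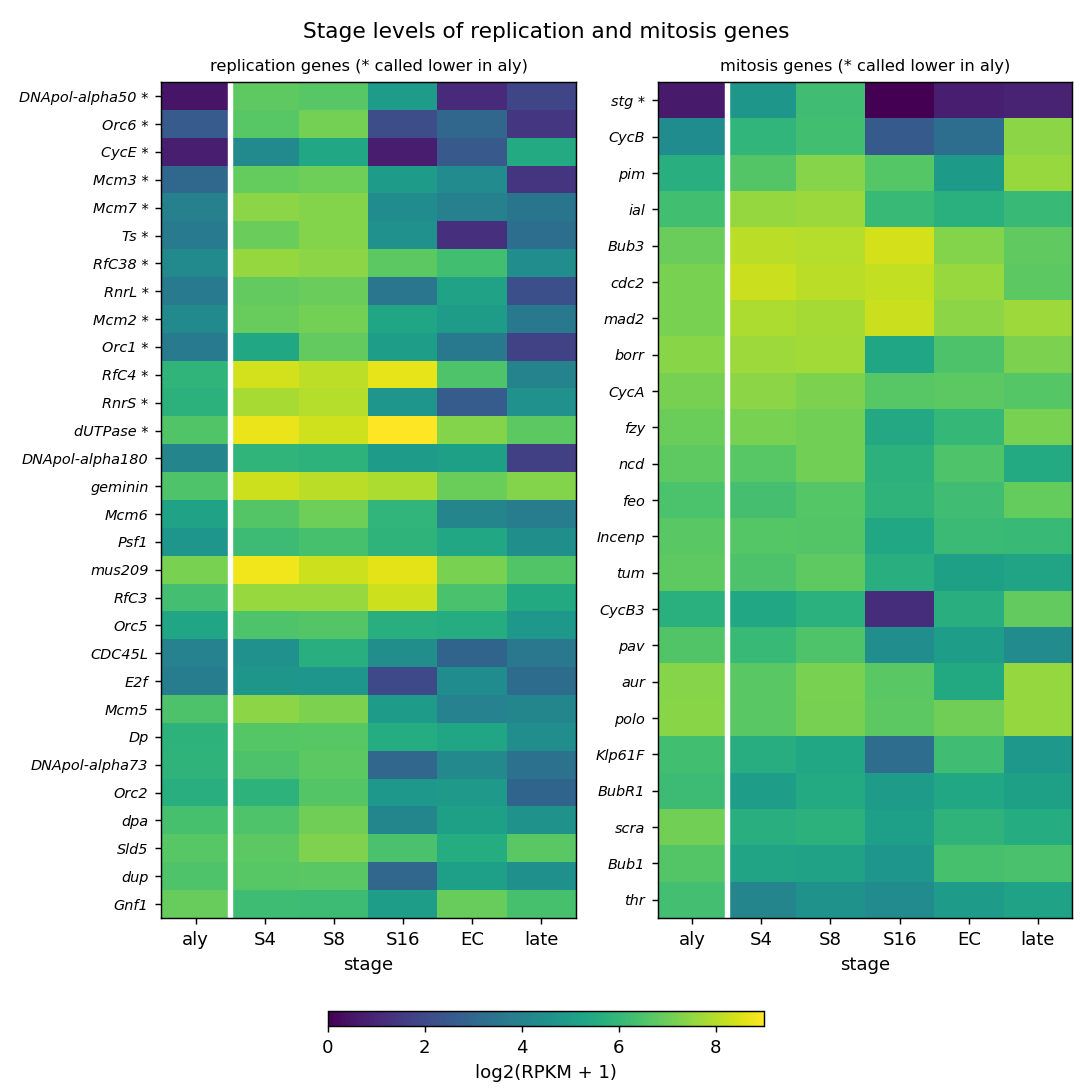
Stage levels as log2(RPKM + 1) of 30 replication genes (left panel) and 23 mitosis genes (right panel), each ordered by the difference of aly from spermatogonia, with aly in the first column and then S4, S8, S16, EC and late spermatocytes. Starred genes were called lower in aly, 13 on the left and stg on the right, and the unstarred mitosis genes lie on both sides of their S4 and S8 levels.

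Of 16 tested regulators of germline differentiation 2 rose and 2 fell, or 12.5% each way, against 20.9% higher and 6.1% lower of all genes. Under quantile scaling 0 rose and 4 fell. bam, which drives the switch from mitosis to differentiation, had 45 and 41.2 RPKM in aly, against 129 and 167 in S4 and 154 and 176 in S8. The groups did not overlap, but the fitted difference of -1.83 ± 0.77 did not pass (adjusted p = 0.0589). Its partner tut (CG32364) had 48.8 and 52.7 RPKM in aly, against 79.2 to 135 in spermatogonia (adjusted p = 0.13), and bgcn had 58.1 and 62.8, against 17.8 to 51.8 (adjusted p = 0.0469, difference 0.79). zpg, the germline gap junction protein, had 37.9 and 31.1 RPKM in aly, against 125 and 275 in S4 and 187 and 204 in S8, and fell by 2.44 ± 0.59. vas, the germline RNA helicase, had 5.40 and 8.98 RPKM in aly, against 39.9 and 60.5 in S4 and 56.4 and 46.1 in S8, and fell by 2.68 ± 0.69, a call lost without aly library a (-2.37, adjusted p = 0.0614). otu had 11.1 and 9.95 RPKM in aly, against 0.333 at most in spermatogonia, and rose, though not under quantile scaling. mei-P26 had 62.2 and 56.3 RPKM in aly, against 18.7 and 3.58 in S4 and 15.8 and 4.38 in S8. Its call was lost without S4 library b (1.97, adjusted p = 0.0667), S8 library b (2.06, adjusted p = 0.0673), aly library a (2.30, adjusted p = 0.113) or aly library b (2.44, adjusted p = 0.0864). It was also lost under total-read scaling (1.91, adjusted p = 0.0535), under quantile scaling (under 4-fold, adjusted p = 0.0353) and in a fit of aly, S4 and S8 alone (adjusted p = 0.0571).

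Of 19 tested genes of the piRNA pathway, which silences transposons in the germline, 0 rose and 5 fell (26.3%, against 6.1% of all genes), with a median of -0.67. Their spermatogonial median was 76.9 RPKM, against 9.14 over all kept genes. shu, a co-chaperone that loads Piwi proteins, had 3.38 and 5.91 RPKM in aly, against 178 and 167 in S4 and 191 and 182 in S8, and fell by 5.03 ± 0.69 (adjusted p = 2.33e-05). aub, a cytoplasmic Piwi protein, had 11.6 and 14.5 RPKM in aly, against 162 and 144 in S4 and 155 and 158 in S8, and fell by 3.48 ± 0.55. cuff had 3.62 and 4.53 RPKM in aly, against 93.1 and 91.8 in S4 and 69.6 and 117 in S8. piwi and vls fell as well, to 3.72 and 3.44 RPKM and 22.3 and 23.3 RPKM in aly, against 12.4 to 54.7 and 148 to 229 in spermatogonia. AGO3, the partner of Aub in piRNA amplification, had 50.8 and 48.1 RPKM in aly, against 54.7 to 73.0 in spermatogonia, and was not called. mael, tud and vret overlapped between the groups, with mael at 135 and 163 RPKM in aly against 162 to 232 in spermatogonia. EC held 267 RPKM of aub and 73.7 of shu, against 18.8 and 4.25 in late spermatocytes.

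Genes of ribosome biogenesis fell in part in aly. Of 17 tested genes of the nucleolus 0 rose and 7 fell (41.2%, against 6.1% of all genes), with a median of -1.37. Their spermatogonial median was 178 RPKM, against 9.14 over all kept genes. dm, the fly Myc, which promotes growth and ribosome production, had 0.765 and 1.18 RPKM in aly, against 54.0 and 88.8 in S4 and 54.2 and 49.6 in S8, and fell by 4.96 ± 1.08 (adjusted p = 0.00134). Nop56, a core protein of snoRNA particles, had 30.8 and 27.2 RPKM in aly, against 288 and 429 in S4 and 237 and 344 in S8, and fell by 3.41 ± 0.44. Nop60B, the fly dyskerin, had 16.7 and 20.1 RPKM in aly, against 126 to 211 in spermatogonia, and fell by 3.06 ± 0.55. Fib, fibrillarin, had 92.8 and 107 RPKM in aly, against 170 to 396 in spermatogonia, with a difference of -1.35 that passed limma (adjusted p = 0.00331) but not the fold. Nopp140 overlapped, at 50.3 and 52.8 RPKM in aly against 46.9 to 107 in spermatogonia. EC held 22.5 RPKM of dm and 193 of Nop56.

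Of 13 tested Polycomb group genes, which keep genes silent through histone marks, 3 rose, a share near the 20.9% of all genes, and 0 fell. Under quantile scaling 1 rose and 2 fell, and the median was 0.09, against 0.97 without it. Scm had 77.5 and 83.9 RPKM in aly, against 11.8 and 5.55 in S4 and 15.5 and 6.84 in S8, and rose, with a stage difference of 2.90 (limma adjusted p = 0.00311). Su(z)12, a subunit of the methyltransferase complex, had 87.9 and 91.6 RPKM in aly, against 5.64 and 19.9 in S4 and 31.0 and 11.3 in S8. Its call was lost under both scalings and without S8 library b (1.99, just under 4-fold). Su(z)2 had 16.2 and 19.4 RPKM in aly, against 1.07 at most in spermatogonia, and rose, though not under quantile scaling (1.24). E(z), the methyltransferase itself, had 50.9 and 42.7 RPKM in aly, against 60.8 to 93.9, and was not called.

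Among beta tubulins the testis form rose and the general form fell. betaTub85D, given above, was the sole tubulin of 9 tested that rose. betaTub56D, the general form, had 74.7 and 62.5 RPKM in aly, against 267 and 483 in S4 and 213 and 300 in S8, and fell by 2.12 ± 0.34, a call lost with values held at the lowest ceiling (-1.56) and without S4 library b (-1.92). alphaTub84B had 177 and 245 RPKM in aly, against 231 to 520 in spermatogonia, and its higher aly library stood at most of the library's ceiling of 293.

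The 12 largest in favour of aly among genes with no overlap were CG12699, loopin-1, CG1394, CG9920, ocn, S-Lap1, CR32658, CG3124, CG1324, CG17376, Mst84Dc and CG7768. They had 174 to 191 RPKM in aly library a and 237 to 265 in library b, and no spermatogonial read, and all 12 stood above 80% of the aly ceiling, and the order among them is not read. The 12 largest lower in aly were CR40469, Npc2g, GstD7, CG14545, betaTry, CG16712, Df31, CG6415, DNApol-alpha50, Jon25Bi, CG18186 and Nxt1. CG14545 had 1.99 and 0.357 RPKM in aly, against 215 and 302 in S4 and 176 and 280 in S8, and fell by 6.89 ± 0.70. betaTry and Jon25Bi belong to families of near copies among which reads may be split. Df31, a histone-binding protein that opens chromatin, had 2.49 and 1.95 RPKM in aly, against 264 and 343 in S4 and 226 and 319 in S8, and fell by 6.47 ± 0.99. Nxt1, an mRNA export factor, had 3.49 and 3.34 RPKM in aly, against 241 and 412 in S4 and 202 and 317 in S8, and fell by 6.01 ± 0.93. CR40469, a noncoding RNA, had no read in aly, against 110 and 236 RPKM in S4 and 89.6 and 146 in S8.

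Shares of called genes are given by chromosome and gene class as a description. Genes called higher in aly were 24.4% of the tested genes on X, 23.5% on 2L, 19.4% on 2R, 20% on 3L and 18.7% on 3R. On chromosome 4 the share was 8.22%, or 6 of 73 genes. Genes called lower were 5.48 to 6.44% on each of these. Of protein-coding genes 21% rose and 6.1% fell, of annotated noncoding RNAs 18% rose and 4.71% fell, and of 95 snoRNAs 11.6% rose and 7.37% fell. None of these shares was tested against another.

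Summed levels of cyst cell and hub markers overlapped between the groups, while those of muscle sheath markers were lower in both aly libraries than in any spermatogonial one. Of 7 cyst cell markers 1 rose and 1 fell, and their summed level was 50.5 and 40.1 RPKM in aly, against 72.3 and 33.7 in S4 and 22.2 and 10.9 in S8. eya rose, with a stage difference of 2.17, a call lost under total-read scaling (1.75) and quantile scaling (0.55). Nrt fell, with a stage difference of -2.03, a call lost without S4 library b (-1.99). tj, a defining factor of early cyst cells, had 0.513 and 0.645 RPKM in aly, against 3.64 and 5.92 in S4 and 0.51 and 3.96 in S8. Of 7 hub markers 0 rose and 1 fell, with sums of 39.1 and 30.8 RPKM in aly, against 107 and 31.0 in S4 and 65.9 and 22.2 in S8, and CadN stood at 0.27 RPKM or less in all 6 libraries. Of 13 muscle sheath markers 0 rose and 5 fell (38.5%, against 6.1% of all genes), with a median of -1.58. Leaving out 1 library gave 4 to 6 that fell. Their sums were 76.3 and 52.9 RPKM in aly, against 562 and 85.1 in S4 and 242 and 409 in S8. The median was 0.37 for the cyst list and 1.42 for the hub list, and these turned to -1.48 and -0.50 under quantile scaling, and the cyst median to -0.01 under total-read scaling.

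Genes of haemocytes and fat body moved both ways. Of 8 tested, 3 rose and 2 fell, with a median of 1.07 that was -0.65 under quantile scaling, and summed levels of 86.7 and 87.0 RPKM in aly, against 170 and 156 in S4 and 62.7 and 70.1 in S8. Hml and Pxn, both haemocyte genes, had 30.3 and 23.5 RPKM and 34.9 and 38.1 RPKM in aly, against no read of Hml and at most 0.143 RPKM of Pxn in spermatogonia, and both rose. The haemocyte genes He and eater had 0.909 and 0 RPKM and 0.185 and 0 RPKM in aly, and did not pass the filter on low values. The yolk protein genes did not move alike. Yp3 had 1.23 and 1.18 RPKM in aly, against 134 and 146 in S4 and 54.6 and 39.1 in S8. Yp2 rose, with a stage difference of 2.70, a call lost under quantile scaling (0.91) and with a pseudocount of 5 (1.38). Yp1 had 7.84 RPKM in aly, under the 8 RPKM minimum, and no spermatogonial read, at least 9.08-fold higher. Of 15 digestive genes 0 rose and 7 fell, a count that was 12 without S4 library a, 4 without S4 library b, 4 without aly library b, and 5 to 7 without each of the others. Their summed level was 31.9 and 37.8 RPKM in aly, against 260 and 3260 in S4 and 49.4 and 308 in S8, so S4 library b held most of it. betaTry and Jon25Bi, 2 of the 12 largest decreases, belong to that list. The part of these other cell types in the results above was not tested.

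**Figure D5:**
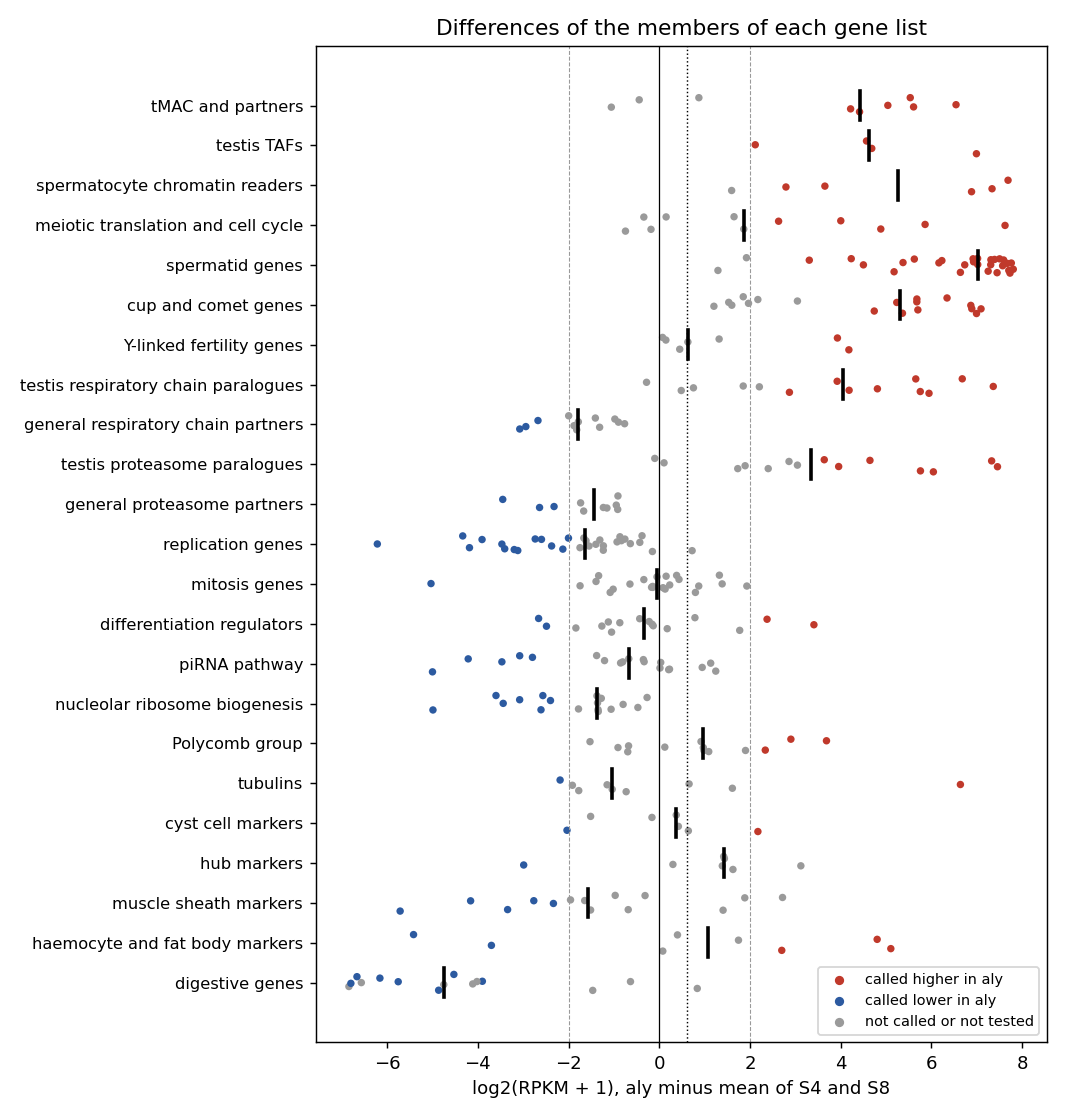
Log2 difference of each member of the gene lists, aly minus the mean of S4 and S8, with the list's median as a thick bar, the median of all kept genes as a dotted line and 4-fold limits as dashed lines. The meiotic arrest, spermatid and testis paralogue lists lie to the right, the replication, nucleolar and general partner lists to the left, and the mitosis list straddles 0.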

How the data were processed

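Per the labels' protocols, single cysts were picked by needle, opened with mild detergent, reverse transcribed from poly-dT primers, tailed and amplified. Bowtie 0.12.7 and edgeR are listed in the submitters' processing notes without their roles, and no source used here gives the build, annotation, strand or duplicate handling. The deposited table holds RPKM, the authors' mean per stage for 12810 genes and 9 stages.

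Each stage value times a gene length is a sum of whole reads times a constant per library, so reads of 20 libraries were recovered for 12781 genes (99.77%, relative tolerance 1e-12). The mean of one late spermatocyte group (LC2) held 3 libraries where the labels name 2. Recovered libraries carry no replicate number. The annotated length fitted 2419 of the recovered genes. For the others the shortest fitting length was used, multiplied to come near the annotated length where there was one. Read numbers of those genes may be off by a whole factor. The recovery was tested on simulated data.

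limma 3.58.1 (R 4.3.3) with a trend was fitted to log2(RPKM + 1) of all 20 libraries in 9 groups (residual degrees of freedom 11, prior 4.28), with the contrast aly minus the mean of S4 and S8, two-sided, Benjamini-Hochberg adjusted over the genes fitted. Calls also needed a 4-fold stage difference and 8 RPKM on the higher side. A fold on the log2(RPKM + 1) scale understates changes of low genes. "At least" folds place 3 reads in each unread library and cover counting error only. SEs and p-values measure only the spread between libraries within all 9 groups, not within aly, S4 and S8 alone. That spread may be technical. Named genes are the markers, aly, members of the 23 lists (319 of 326 genes analysed) and the 12 largest differences each way without overlap. Members and lists were chosen with earlier results of these data known. Depths and ceilings are in the report. 20 alternatives were tried.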

Additional observations from a re-analysis of the deposited data

How the results depend on the processing

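No called value of a named gene reversed under the 20 alternatives, and calls of the full sets up in EC and up late stayed within 1.5 times. Counts over all genes, over the genes that fall in EC or over those up late and not in EC moved by more than that under 3 of them. With a pseudocount of 5, 1798 genes were at least 4-fold higher in aly and 645 at least 4-fold lower. With quantile scaling these were 1762 and 2224, and calls were 1612 higher and 1600 lower, of which 1562 and 718 were also called without it; 210 genes that fall in EC were called lower, and 228 of those up late and not in EC higher, against 407 without it. Without the fold minimum 1551 genes were called lower. Leaving out 1 library at a time gave 2150 to 2547 genes called higher and 538 to 797 called lower. The cause of these shifts was not tested. No paired analysis was possible because recovered libraries carry no replicate number. Genes near the ceiling of 1 read per base, 23 of those called higher, have differences that depth limits, and 59 genes called lower had spermatogonial levels above the aly ceiling.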

Other observations

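Genes that textbook accounts place among those that need aly were read in both libraries labelled aly at unequal levels. Mst87F had 137 and 177 RPKM in aly, against 360 in late spermatocytes, dj had 64.7 and 44.6 against 286, fzo had 10.3 and 7.48 against 124, and CycB had 25.8 and 13.7 against 170. twe had 48.2 and 45.8 RPKM in aly, against 184 in late spermatocytes. The ceilings of these stages differ, and the allele behind the label is not given.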
